A study of Mus musculus with 13 samples.

Results

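Streptozotocin (STZ) livers carried more mRNA of 4 of the 8 measured genes of the urea cycle and ammonia handling than control livers, and none of the 8 was lower by the test. The genes were a list of 9 fixed by name (Cps1, Otc, Ass1, Asl, Arg1, Arg2, Nags, Glud1 and Car5a), of 19938 genes named on the array. A gene was read from the probe set whose annotation gave that symbol alone, and the brightest such probe set was taken where a gene had several. Each of the 8 measured genes had 1. Ass1, argininosuccinate synthase, had none: both of its probe sets, 2 in number, were also annotated to a second gene, Gm5424, and no value is given for it.

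The samples were livers of male wildtype C57BL/6N mice aged 5 to 6 months. STZ is a glucose analogue that destroys pancreatic beta cells and so lowers insulin. It had been injected into the peritoneum of 6 mice at 65 mg/kg on each of 5 days in a row, at 10 to 16 weeks of age. Livers were taken 9 to 11 weeks afterwards. No glucose or insulin value of these mice was used here. The 7 controls were given citrate buffer instead, while the series' design line describes them by standard diet. Every mouse had 1 Affymetrix array of total liver RNA, and the values are log2 intensities after robust multi-array averaging (RMA). A difference is STZ minus control on that log2 scale, so 1 unit is a doubling of the array signal.

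The urea cycle turns ammonia from amino acid breakdown into urea, mainly in the periportal hepatocytes that meet the portal blood first. Its opening steps run in the mitochondrion, where Cps1 joins ammonia to bicarbonate supplied by carbonic anhydrase 5a (Car5a) under the allosteric activator made by Nags, and Otc adds the product to ornithine. The later steps run in the cytosol, where Ass1 brings in aspartate, Asl releases fumarate and arginine, and Arg1 splits arginine into urea and ornithine. Glucagon and glucocorticoids are known to raise the expression of these enzymes, and insulin is known to oppose them.

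Promoter sequence from RefSeq (build GRCm38.p6, 250 bases before to 50 after the start of the gene, read 5′ to 3′ on the strand of the gene) was found for 5 of the 9 genes. The 5 were Otc, Car5a, Nags, Glud1 and Ass1, and none of the members that rose (Cps1, Asl, Arg1 and Arg2) was among them. The windows of Glud1 and Ass1 held no match to any motif named below and are not shown. The 3 shown first are mitochondrial members whose mRNA did not pass the test. The fourth is Hal, histidine ammonia-lyase, an ammonia-releasing enzyme of periportal hepatocytes whose mRNA rose. Hal is outside the list of 9, and no other pathway gene has its window shown. Capitals mark matches, on either strand, to the C/EBP motif TTNNGNAA, the cyclic AMP response element TGACGTNA, the FOXO motif GTAAACA, the glucocorticoid half-site AGAACA, the HNF4 motif CAAAGTC or the TATA box TATAAA.
Otc (chrX:10252055-10252354, plus strand): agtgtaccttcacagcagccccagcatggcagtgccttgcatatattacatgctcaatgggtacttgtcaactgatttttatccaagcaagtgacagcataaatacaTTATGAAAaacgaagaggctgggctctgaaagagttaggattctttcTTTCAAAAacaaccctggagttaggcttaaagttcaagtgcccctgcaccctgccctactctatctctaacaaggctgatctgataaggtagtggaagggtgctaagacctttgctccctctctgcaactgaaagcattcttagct
Car5a (chr8:121944863-121945162, minus strand): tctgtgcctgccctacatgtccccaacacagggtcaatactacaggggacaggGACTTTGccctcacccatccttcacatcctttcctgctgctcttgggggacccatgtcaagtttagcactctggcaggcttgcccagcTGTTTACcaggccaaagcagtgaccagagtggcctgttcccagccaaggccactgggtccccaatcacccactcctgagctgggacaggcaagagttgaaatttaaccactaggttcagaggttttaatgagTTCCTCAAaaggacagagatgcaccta
Nags (chr11:102145263-102145562, plus strand): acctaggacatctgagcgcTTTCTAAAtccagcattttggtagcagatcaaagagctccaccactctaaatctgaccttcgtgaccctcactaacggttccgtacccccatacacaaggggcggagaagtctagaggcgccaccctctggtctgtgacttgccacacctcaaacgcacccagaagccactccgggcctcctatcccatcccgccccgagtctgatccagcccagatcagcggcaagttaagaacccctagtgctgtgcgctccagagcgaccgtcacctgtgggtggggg
Hal (chr10:93488518-93488817, plus strand): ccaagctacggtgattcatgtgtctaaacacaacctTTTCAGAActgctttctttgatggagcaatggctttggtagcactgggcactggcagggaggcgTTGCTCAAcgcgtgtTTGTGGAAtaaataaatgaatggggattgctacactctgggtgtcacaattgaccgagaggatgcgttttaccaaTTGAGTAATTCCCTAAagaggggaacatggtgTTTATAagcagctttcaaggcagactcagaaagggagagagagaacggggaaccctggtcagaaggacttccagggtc

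The C/EBP motif matched 2 times in the Otc window, 1 time each in those of Car5a and Nags, and 5 times in that of Hal. Among the windows of the members and of the pathway genes named by rule, that of Hal held the most C/EBP matches. Of other pathway genes that rose, Slc1a4, Got1, Gldc, Fh1, Agmat and Slc25a15 had windows without a C/EBP match. Slc1a2 had 2 matches, and Oat, Adssl1, Sat1, Slc25a12, Slc25a22, Ppargc1a and Car6 had 1 each. Whether matches go with a rise was not tested. The C/EBP motif is loose, held by 40.7% of the 32851 promoter windows in the table. The Car5a window also held 1 FOXO match (3.6% of all windows hold one) and 1 HNF4 match (4.4%), and the Hal window 1 TATA box match (13.6%). No cyclic AMP response element match (2.9%) and no glucocorticoid half-site match (19.0%) lay in these 4 windows. Some matches abut, as at the Hal sites 60 and 52 bases before the start, where TTGAGTAA is followed directly by TTCCCTAA.

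Of the 8 measured genes, 4 rose in STZ livers (Asl, Arg1, Arg2 and Cps1), none fell, and 4 did not pass (Otc, Nags, Glud1 and Car5a), at an adjusted p under 0.05 in limma over all 19938 genes. No member was lower at an unadjusted p under 0.05 either, and the exact rank-sum test called 2 higher and 0 lower. Across all genes 9.12% passed, 5.09% as higher and 4.04% as lower. As the background of the other counts given here and below, 4156 of the 19938 genes had an unadjusted p under 0.05 in limma. The exact rank-sum test called 1088 of the 19938 at an adjusted p under 0.05. Even full separation of the groups, as for Asl and Cps1, gave an adjusted p of only 0.0302 in that test. A small overlap can therefore be enough to lose a call there. The median difference of the 8 was 0.14, and that of all genes was -0.0063. The groups did not overlap for 2 of the 8, Asl and Cps1, both higher in STZ livers. Of all genes, 3.86% did not overlap, with 2.30% higher in STZ livers and 1.56% lower. The count depended on single mice: it was 1, with only Asl left, without STZ replicate 1 and also without STZ replicate 4, and it was 2 without STZ replicate 2, control replicate 5 or control replicate 7.

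**Figure D1:**
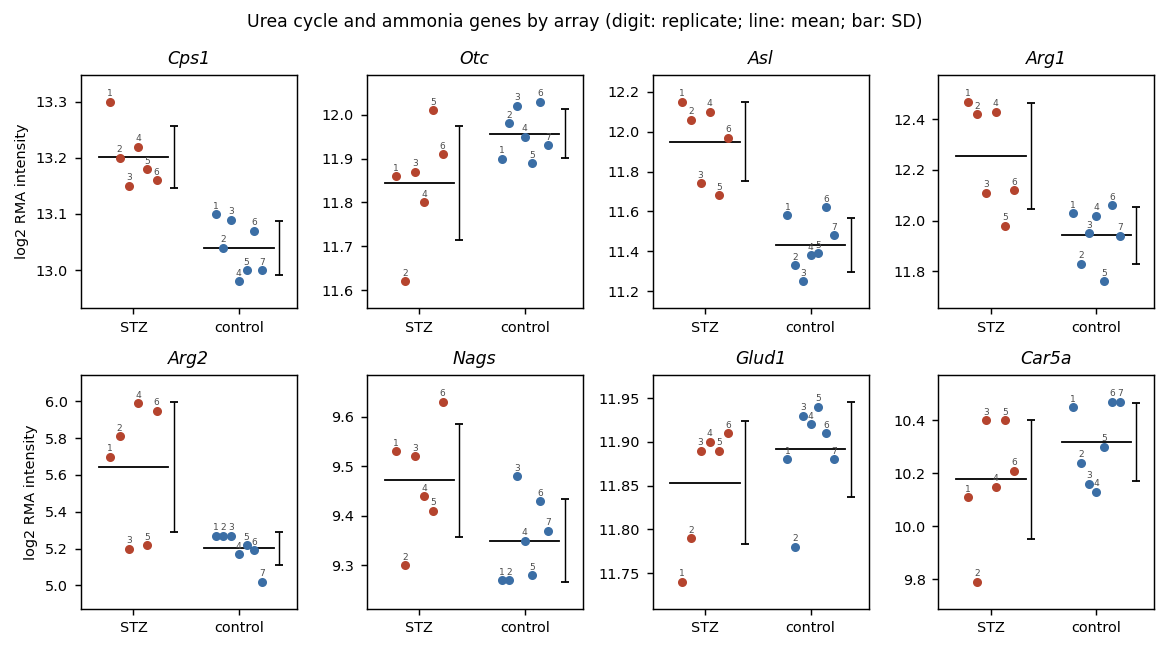
Log2 RMA intensity of the 8 measured genes in each liver, STZ at the left (6 mice) and control at the right (7 mice) of every panel. Each point is a mouse with its replicate number, the line is the group mean and the bar its SD, and every panel has its own vertical range. Asl and Cps1 separate the groups fully, whereas STZ replicates 3 and 5 lie among the controls for Arg2.

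Asl, the lyase that yields arginine and fumarate, showed the largest difference of the 8. Its values in STZ livers ran from 11.68 over a median of 12.02 to 12.15, against 11.25, 11.39 and 11.62 in control livers. Every STZ liver lay above every control, and STZ replicates 5 and 3 were the ones nearest to the controls. The mean was 11.95 ± 0.20 (SD, n = 6) in STZ livers and 11.43 ± 0.13 (SD, n = 7) in controls, a difference of 0.52 ± 0.08 (SE) or 1.43-fold, with an adjusted p of 0.000872 in limma. It passed in all 13 fits that left out 1 array, with differences of 0.48 to 0.57.

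Arg1, the hepatic arginase that releases urea, rose by 0.31 ± 0.08 (SE), or 1.24-fold (limma, adjusted p = 0.0266). STZ livers spanned 11.98 to 12.47 with a median of 12.27, against 11.76 to 12.06 with a median of 11.95 in control livers. STZ replicate 5 lay within the control range and the other 5 STZ livers lay above it. The Arg1 call was lost without STZ replicate 1, 2 or 4 or control replicate 2 or 5, where the difference was 0.27 to 0.29 and the adjusted p 0.0530 to 0.0696. An exact rank-sum test in place of limma gave an adjusted p of 0.0874 for Arg1.

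In the 6 STZ livers Arg1 followed Asl from mouse to mouse. Pearson's r was 0.92 (exact permutation p = 0.00139) and Spearman's rho was 1 (exact permutation p = 0.00278), and r was 0.92 without the 2 livers farthest from the Asl median. Over the 56 relations computed (28 gene pairs in each group), the Benjamini-Hochberg adjusted values of this pair were 0.0778 and 0.156, so it did not pass the correction, and no other pair did. In the 7 control livers r was 0.53 and rho 0.54 (exact permutation p = 0.222 and 0.236), and r was -0.04 without the 2 farthest livers. STZ replicates 1, 4 and 2 were the highest for both genes and replicates 3 and 5 were the lowest.

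Cps1, the mitochondrial synthetase that commits ammonia to the cycle, was higher by a small margin. It measured 13.15 to 13.30 in STZ livers (median 13.19), against 12.98 to 13.10 in control livers (median 13.04). The groups did not overlap, with a gap between STZ replicate 3 and control replicate 1. The means were 13.20 ± 0.05 (SD, n = 6) in STZ livers and 13.04 ± 0.05 (SD, n = 7) in controls, which is a rise of 0.16 ± 0.04 (SE) or 1.12-fold (limma, adjusted p = 0.0307). Without control replicate 4, 5 or 7 or STZ replicate 1 or 4 the adjusted p was 0.0596 to 0.0773, with differences of 0.14 to 0.16. Cps1 sat at percentile 99.8 of all genes by its mean, near the bright end of the array, where the highest value of any gene was 13.84. Whether differences are compressed at that end was not tested.

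Arg2, the mitochondrial arginase that is minor in hepatocytes, divided the STZ livers. STZ replicates 4, 6, 2 and 1 gave 5.99, 5.95, 5.81 and 5.70, whereas STZ replicates 5 and 3 gave 5.22 and 5.20. The controls ran from 5.02 over a median of 5.22 to 5.27, so 4 STZ livers lay above every control and the other 2 lay inside the control range. The SD was 0.35 in STZ livers (n = 6) and 0.09 in controls (n = 7). The difference was 0.44 ± 0.12 (SE), or 1.36-fold (limma, adjusted p = 0.0262). It was 0.38 to 0.43 and did not pass (adjusted p = 0.0555 to 0.0689) without STZ replicate 1, 2, 4 or 6 or control replicate 7, and the exact rank-sum test gave an adjusted p of 0.262. Arg2 was dim on these arrays, at percentile 26.2 of all genes, where differences are compressed.

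STZ replicates 3 and 5 were also the lowest of their group for the mean of the Kupffer cell and macrophage markers. This order was not limited to Arg2 and these markers. The same livers were nearest to the controls for Asl and for Aqp8, which is given below. Of these 12 markers 6 rose and none fell in limma, at a median difference of 0.38 (10 and 0 at an unadjusted p under 0.05, and 0 and 0 in the exact rank-sum test). The mean of the list was 9.15, 9.10, 9.06 and 9.01 in STZ replicates 1, 2, 4 and 6, 8.79 in replicate 5 and 8.52 in replicate 3, against 8.39 to 8.78 in control livers. Of the STZ livers, 5 lay above every control, and only replicate 3 lay inside the control range. The part of these cells in the Arg1 and Arg2 values was not tested. In tissue RNA, more cells of a type and more RNA per cell cannot be told apart.

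The remaining 4 members, 3 of them mitochondrial partners of Cps1, did not pass. Nags, which makes the activator of Cps1, measured 9.30 to 9.63 in STZ livers (median 9.48), against 9.27 to 9.48 in control livers (median 9.35). Its difference was 0.12 with a 95% interval of -0.0048 to 0.25 (limma, adjusted p = 0.263), and 3 of 6 STZ livers lay above all controls. Otc, the ornithine transcarbamylase encoded on the X chromosome, had lower values in 4 STZ livers than in any control, with a range of 11.62 to 12.01 (median 11.87) in STZ livers, against 11.89 to 12.03 (median 11.95) in controls. Its difference was -0.11 with an interval of -0.24 to 0.01 (limma, adjusted p = 0.308).

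Car5a, the mitochondrial carbonic anhydrase, spanned 9.79 to 10.40 in STZ livers (median 10.18), against 10.13 to 10.47 in control livers (median 10.30). STZ replicate 2 was the lowest liver for both Car5a and Otc. The Car5a difference was -0.14 with an interval of -0.34 to 0.05 (limma, adjusted p = 0.437). Glud1, glutamate dehydrogenase, which releases ammonia from glutamate in mitochondria, ran from 11.74 to 11.91 in STZ livers (median 11.89), against 11.78 to 11.94 in control livers (median 11.91). Its difference was -0.04 (limma, adjusted p = 0.747), and the interval of -0.14 to 0.06 bounds a change in either direction at these values.

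The enzymes of the cycle that were measured (Cps1, Otc, Asl and Arg1) were also averaged per liver, as a description of where each liver stood. This mean was 12.21 to 12.44 in STZ livers, against 12.01 to 12.19 in control livers, with all 6 STZ livers above all controls. STZ replicates 5 and 3 were the lowest of their group here too. Of its 4 members 3 had already passed singly (Otc had not), so the mean is no further evidence. The genes whose deviations from the group mean were most like those of this average, among 9640 genes brighter than the median gene, were Psmd9, a proteasome chaperone (r = 0.97 over 13 arrays), the mitochondrial import co-chaperone Grpel1 (0.91), the glycogen phosphorylase Pygb (0.91), the ADP/ATP carrier Slc25a4 (0.91) and Ttc36 (0.91). These are the highest of many values and are given without a test. None of these genes passed in the comparison of STZ with control livers by limma (adjusted p = 0.0938 to 0.815).

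The carriers that serve the cycle were taken as a list with urea and ammonia exit channels. Of 11 measured, 3 were higher (Slc25a15, Slc25a22 and Slc25a12) and 1 lower (Aqp8), with a list median of 0.08 (3 and 1 also before adjustment, 1 and 1 by rank sums). Slc25a15, the mitochondrial exchanger of ornithine for citrulline, ran from 11.45 over a median of 11.73 to 11.92 in STZ livers, against 10.89, 11.14 and 11.18 in control livers, with no overlap. That is a rise of 0.61 ± 0.08 (SE), or 1.53-fold (limma, adjusted p = 0.000177). The glutamate carrier Slc25a22 was 1.54-fold and the aspartate-glutamate carrier Slc25a12 1.35-fold higher, each with 5 of 6 STZ livers above all controls. Neither of these calls held in the exact rank-sum test. For Slc25a13, citrin, the main aspartate-glutamate carrier of liver, the difference was 0.09 with an interval of -0.03 to 0.21 (limma, adjusted p = 0.391). Citrin falls outside the naming rule and was singled out after its values were seen.

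Aqp8, a water channel that also conducts ammonia, was the largest difference of the pathway lists. Its values in STZ livers ran from 7.93 to 10.62 (median 9.24), against 11.24 to 11.97 (median 11.48) in control livers, and the fall was 4.68-fold. The urea transporters Slc14a1 and Slc14a2 and the urea-permeable channel Aqp9 did not pass, with differences of -0.10, 0.11 and 0.08, and these 3 were picked after their values were seen.

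**Figure D2:**
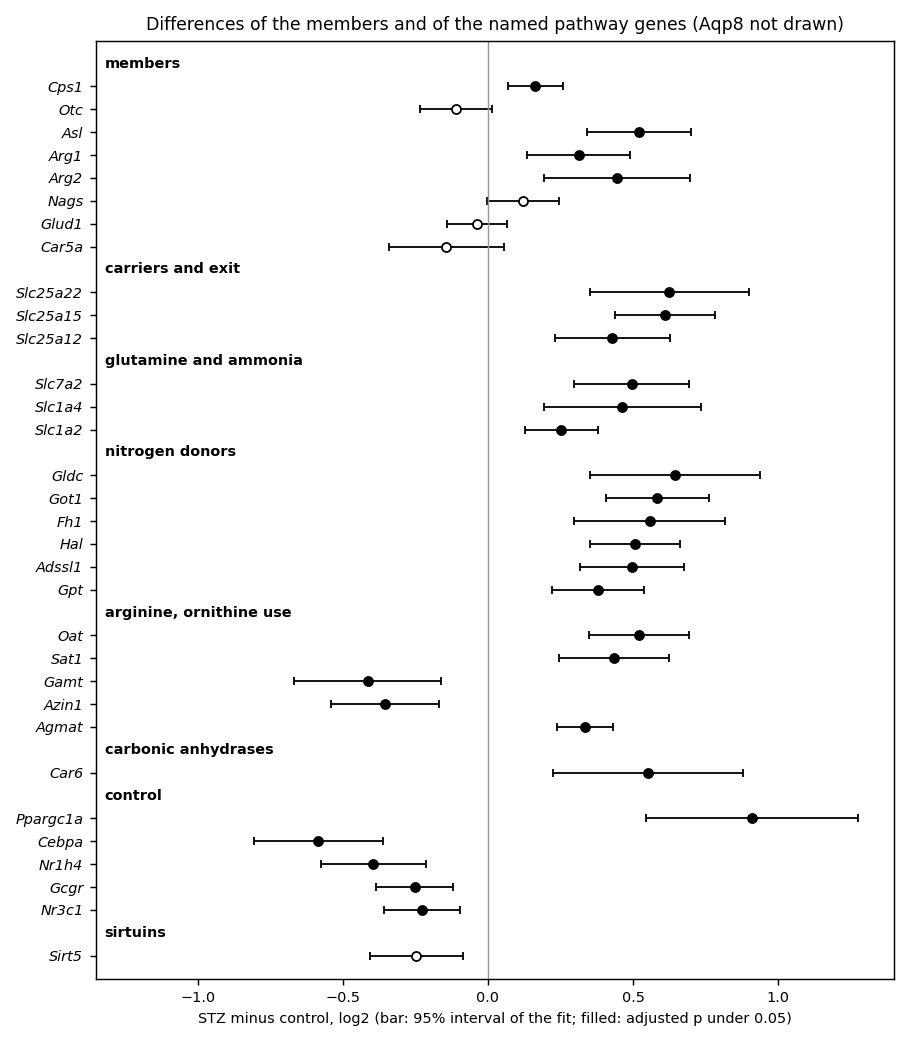
STZ minus control difference on the log2 scale for the 8 measured genes and for the pathway genes named by rule, grouped by list, with 95% intervals of the limma fit. Filled points passed at an adjusted p under 0.05, and Aqp8, at -2.23, is not drawn. Among the 8, Asl, Arg2, Arg1 and Cps1 lie to the right of 0 with filled points.

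Of 19 measured enzymes that feed nitrogen into the cycle or return its carbon, 7 rose and 1 fell in limma, at a median of 0.09. Before adjustment 7 were higher and 4 lower, and by rank sums 5 were higher and 1 lower. Got1, the cytosolic aspartate aminotransferase, measured 12.69 to 13.20 in STZ livers (median 12.91), against 12.14 to 12.59 in control livers (median 12.35), a 1.50-fold rise without overlap (limma, adjusted p = 0.00033). Hal ran from 12.33 to 12.71 (median 12.42) in STZ livers, against 11.83 to 12.17 (median 11.95) in controls, also without overlap and 1.42-fold higher. Higher as well were the glycine-cleaving Gldc (1.56-fold), fumarase Fh1 (1.47-fold), the adenylosuccinate synthase Adssl1 (1.41-fold), the alanine aminotransferase Gpt (1.30-fold) and the malate dehydrogenase Mdh2 (1.22-fold). The calls of Gldc and Fh1 did not hold in the exact rank-sum test. The lower gene was Glyctk, glycerate kinase, which handles no nitrogen itself (difference -0.25 ± 0.06 SE). Mitochondrial Got2 had a difference of -0.05 with an interval of -0.14 to 0.04, and Gpt2 one of -0.11 with an interval of -0.25 to 0.04. Mdh2 and Glyctk, which ranked below the 6 genes the rule names in this list, and Got2 and Gpt2 were added after their values were seen.

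Genes of glutamine and ammonia exchange were higher for 3 of 12 and lower for none, at a median of 0.11 (5 higher and 0 lower at an unadjusted p under 0.05, and 2 and 0 in the exact rank-sum test). The cationic amino acid transporter Slc7a2, which carries arginine and ornithine, rose by 0.49 ± 0.09 (SE) or 1.41-fold (limma, adjusted p = 0.00273). The glutamate transporter Slc1a2, found in pericentral hepatocytes, was 1.19-fold higher. The neutral amino acid transporter Slc1a4 was 1.38-fold higher (limma, adjusted p = 0.0302). The Slc1a4 call was lost without control replicate 1, 2 or 7 or STZ replicate 1, 3, 4 or 6 (difference 0.39 to 0.47, adjusted p = 0.0516 to 0.0748). Glutamine synthetase Glul, the pericentral enzyme that takes up the ammonia the cycle leaves, did not pass, with values of 11.67 to 12.38 in STZ livers, against 12.22 to 12.43 in control livers. Its difference was -0.18 with an interval of -0.37 to 0.0020 (adjusted p = 0.246). The ammonium transporter Rhbg was 0.44 with an interval of 0.09 to 0.79, also without passing (limma, adjusted p = 0.120). Glul and Rhbg were picked after their values were seen.

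Of 17 genes that use arginine and ornithine, 3 were higher and 2 lower in limma, at a median of 0.03. The exact rank-sum test called 3 higher and 0 lower, and 6 were higher and 2 lower before adjustment. Oat, which turns ornithine toward glutamate, is also in the list of pericentral markers given below. Its values were 13.01 to 13.31 in STZ livers (median 13.11), against 12.30 to 12.88 in control livers (median 12.65). The groups did not overlap, and Oat was 1.43-fold higher (limma, adjusted p = 0.000604). Agmatinase Agmat, which releases urea from agmatine, varied little within a group, at 11.86 ± 0.04 (SD, n = 6) in STZ livers and 11.53 ± 0.06 (SD, n = 7) in controls, and rose by 0.33 ± 0.05 (SE; limma, adjusted p = 0.000204). The polyamine acetyltransferase Sat1 was 1.35-fold higher. Azin1, an inhibitor of the antizyme that degrades ornithine decarboxylase, and Gamt, which forms creatine, were lower by 1.28-fold and 1.33-fold in limma. Neither call held in the rank-sum test (adjusted p = 0.0874 for Azin1 and 0.0628 for Gamt) or with the replicate block (0.0733 and 0.107), and that of Azin1 was also lost when the STZ group was limited to label numbers 29 to 32 (0.0507). The Gamt call (adjusted p = 0.0385) was lost without control replicate 1, 2, 5, 6 or 7 or STZ replicate 1, 2 or 4 (difference -0.43 to -0.32, adjusted p = 0.0550 to 0.0971). It was lost as well with another moderation of the variance and with all probe sets tested. Ornithine decarboxylase Odc1 itself had a difference of -0.010 with an interval of -0.30 to 0.28, and it was named after its value was seen.

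**Figure D3:**
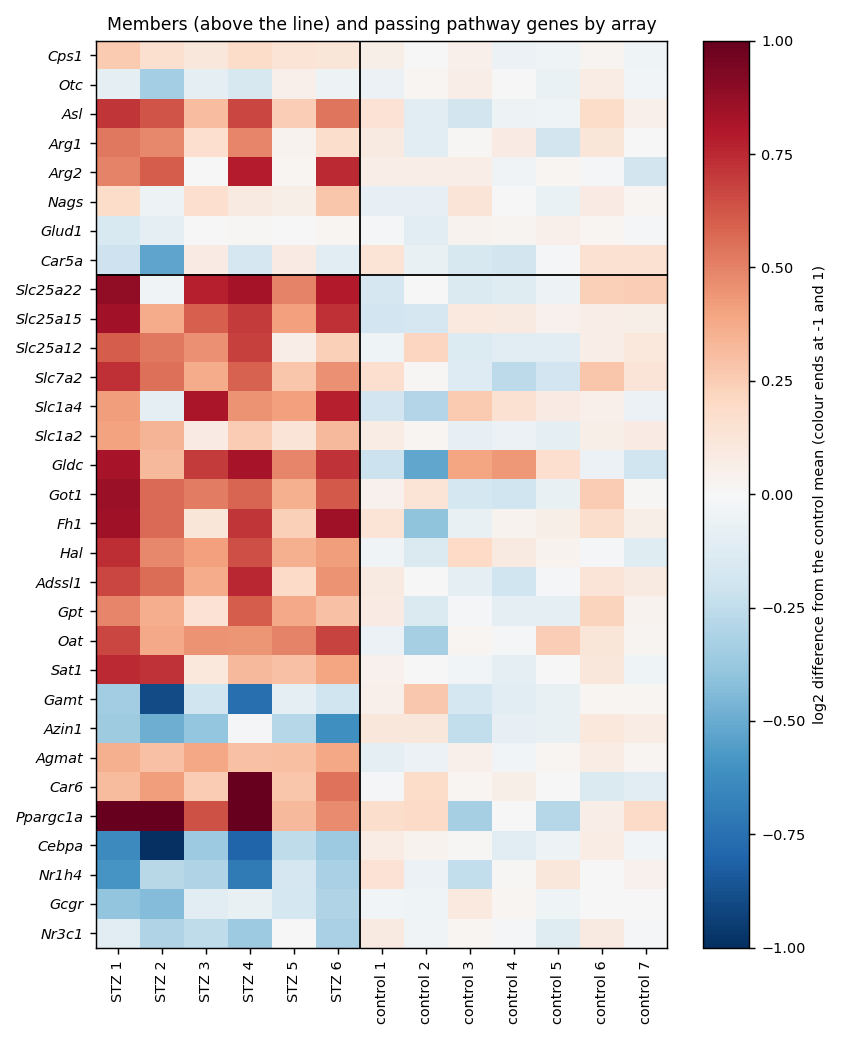
Log2 difference of each liver from the control mean for the 8 measured genes (above the horizontal line) and the passing pathway genes named by rule except Aqp8, with the 6 STZ livers left of the vertical line and the 7 controls right of it. Colour ends at -1 and 1. STZ replicates 1 and 4 are the deepest red for Asl and many carriers and nitrogen donors, and replicates 3 and 5 are pale for Arg2. For Arg1, replicates 3, 5 and 6 are paler than replicates 1, 2 and 4.

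Of 14 other carbonic anhydrases, 1 was higher and none lower in limma (3 and 1 before adjustment, 1 and 1 by rank sums). It was Car6, a secreted form, which was higher by 0.55 ± 0.15 (SE; limma, adjusted p = 0.0334) at a low level (percentile 17.2). The Car6 call was lost without control replicate 1, 3, 4, 5, 6 or 7 or STZ replicate 6 (difference 0.53 to 0.56, adjusted p = 0.0508 to 0.0658), and without STZ replicate 4 its difference was 0.36. This call was also lost with another moderation of the variance, with all probe sets tested and with the replicate block. Car3, an abundant cytosolic form named after its values were seen, had 10.64 to 13.47 in STZ livers (median 12.90), against 13.54 to 13.61 in control livers (median 13.59). All 6 STZ livers lay below all controls, while its difference of -1.19 ± 0.36 (SE) had an adjusted p of 0.0519 in limma. Car5b, the second mitochondrial form, had a difference of 0.03 with an interval of -0.24 to 0.31, and it too was named after its value was seen.

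Regulators known to act on cycle genes were lower for 4 and higher for 1 of 19 in limma, at a median of -0.0045. Before adjustment 7 were lower and 5 higher, and by rank sums 3 were lower and 1 higher. Cebpa, the C/EBP factor of mature hepatocytes, measured 9.22 to 10.03 in STZ livers (median 9.79), against 10.17 to 10.36 in control livers (median 10.30). All STZ livers lay below all controls, and it fell 1.50-fold (limma, adjusted p = 0.00195). The glucagon receptor Gcgr was 1.19-fold, the bile acid receptor Nr1h4 1.31-fold and the glucocorticoid receptor Nr3c1 1.17-fold lower. The Nr3c1 call (adjusted p = 0.0298) was lost without control replicate 1, 3 or 6 or STZ replicate 2, 3, 4 or 6 (difference -0.22 to -0.20, adjusted p = 0.0524 to 0.0751). It was also lost with all probe sets tested, in the rank-sum test and with the replicate block. The coactivator Ppargc1a was 1.88-fold higher. The difference of Cebpb was 0.22 with an interval of 0.0030 to 0.45, and that of Hnf4a 0.15 with an interval of 0.03 to 0.27, and neither passed (limma, adjusted p = 0.231 and 0.138). Both were chosen for mention with their values seen.

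No sirtuin known to modify cycle enzymes passed in limma, of 3 measured (1 at an unadjusted p under 0.05 and 1 in the exact rank-sum test). Sirt5, the desuccinylase that acts on Cps1, came nearest, at 7.18 to 7.69 in STZ livers (median 7.59), against 7.67 to 7.95 in control livers (median 7.76). Its difference was -0.25 ± 0.08 (SE) with an adjusted p of 0.0503, and 5 of 6 STZ livers lay below all controls. It passed without STZ replicate 5 (adjusted p = 0.0267) and in 6 of the 10 alternatives that left out no single array, the exact rank-sum test (0.0427) among them.

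Zonal and cell type markers were measured beside these genes. Over all 19938 genes, 4156 had an unadjusted p under 0.05 in limma and 1088 passed in the rank-sum test. Of 10 periportal markers measured, Arg1 and Hal among them, 6 were higher and none lower (8 and 0 at an unadjusted p under 0.05, 5 and 0 in the rank-sum test), and the mean of the list was 11.30 to 11.70 in STZ livers, against 10.76 to 11.04 in controls. Pericentral markers were higher for 3 and lower for 1 of 13 (4 and 2 before adjustment, 3 and 1 by rank sums), with list means of 10.61 to 10.98 in STZ livers, against 10.66 to 10.84 in controls. Oat, Slc1a2, Glul and Rhbg, already given above, are among these 13. Of 5 hepatocyte-defining markers none was higher and 2 (Apoa1 and Ttr) were lower (0 and 2 also at an unadjusted p under 0.05, 0 and 1 in the rank-sum test), and the list mean lay between 13.18 and 13.23 in STZ livers, against 13.25 to 13.30 in controls. The labelled tissue showed its defining genes at a high level in both groups. Bile duct markers were higher for 1 of 5, with list means of 6.36 to 6.73 in STZ livers, against 6.20 to 6.35 in controls. Sinusoidal endothelial markers were higher for 1 of 8, stellate cell markers higher for 2 and lower for 1 of 8, lymphocyte markers higher for 1 and lower for 1 of 8, and no neutrophil and monocyte marker of 7 passed in limma (1 at an unadjusted p under 0.05, 0 in the rank-sum test). Erythroid markers, of which 2 of 7 were measured, were lower for 1. By rank sums no bile duct, endothelial or lymphocyte marker passed, while 1 stellate cell marker was higher and 1 lower and 1 erythroid marker was lower. Before adjustment 2 bile duct and 2 endothelial markers were higher and 0 lower, and 1 lymphocyte marker was higher and 1 lower. Neither pancreas (4 measured) nor kidney tubule (5 measured) markers passed in limma (0 with an unadjusted p under 0.05, 0 by rank sums). The part of these cells in the results was not tested.

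**Figure D4:**
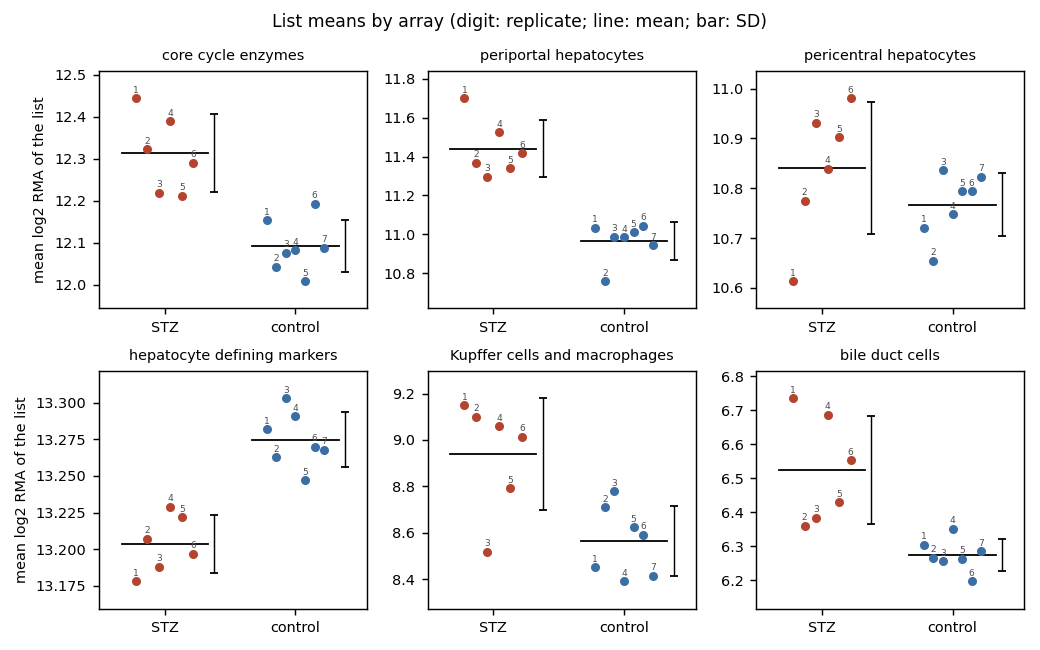
Mean log2 RMA intensity per liver of the 4 measured enzymes of the cycle and of 5 marker lists, STZ at the left and control at the right, with group mean (line) and SD (bar); each panel has its own vertical range. The periportal list, the bile duct list and the cycle enzymes lie higher in all 6 STZ livers, and the hepatocyte-defining list lies lower in all 6. Arg1 is in both the periportal list and the cycle enzymes. STZ replicates 3 and 5 are the lowest of the STZ group for Kupffer cell and macrophage markers.

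Correlations across the 19938 genes, which are not independent replicates, were 0.986 to 0.995 among STZ arrays, 0.982 to 0.994 between STZ and control arrays and 0.993 to 0.997 among control arrays. Array medians were 6.62 to 6.70 in the STZ group and 6.62 to 6.66 in the control group. The labels name each array a biological replicate. The sources used here give no batch or date, and the label numbers of the groups (29 to 32, 40 and 42 for STZ and 1 to 7 for control) do not overlap, so a batch that followed them cannot be told apart from the treatment.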

How the data were processed

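Liver RNA of 6 STZ and 7 control mice was measured on 1 array per mouse. Per the submitters' processing notes, the deposited log2 values come from RMA in Affymetrix Expression Console (version 1.2). This corrects background, equalises the distributions of the arrays and summarises probes, so a general shift in RNA per cell is not visible. For the array annotation version and the genome build, the entry is: not given in the sources used here. The table has 35556 probe sets. The platform annotation gave 1 symbol for 21789, several for 1621 and did not list 12146. Precision is set by the number of arrays, since an array has no sequencing depth.

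Groups came from the sample titles. Computed here were group means, SDs and a 2-group linear model with moderated variances (limma 3.58.1, R 4.3.3) on 19938 genes, two-sided, with 11 residual degrees of freedom and Benjamini-Hochberg adjustment over all genes at 0.05. No dim gene was removed. On simulated arrays with 19938 genes, the model recovered 89% of 100 genes changed by 0.5 log2 units and 99% of 100 changed by 1, with 8 calls among unchanged genes. The simulated noise was normal, independent between genes and equal in both groups. Changes as small as those of Cps1, Arg1 and Arg2 were not simulated, so these figures give no recovery for them. Correlations used exact permutations.

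Members and lists were chosen with earlier results of these data known. Named were all members, up to 6 passing genes per pathway list with the largest absolute difference (or the one with the smallest p where none passed) and 5 genes most like the mean of the cycle enzymes; others are marked where they appear. Cell type marker lists are given as counts and means. Alternatives were another moderation, a brightness filter, other probe set rules, other scalings, array weights, a rank-sum test, a subset of STZ arrays, a replicate block and each array left out.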

Additional observations from a re-analysis of the deposited data

Results flagged for a closer look

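In 76 groups of arrays checked (the named genes in STZ and in control livers), 4 held 1 liver far from the rest relative to the range of its group, and chance flags about 1 group in 20. Arg2 in control replicate 7 was 5.02, with the next control at 5.17 and the highest at 5.27. Glud1 in control replicate 2 was 11.78, with the next control at 11.88 and the highest at 11.94. Car6 in STZ replicate 4 was 6.11, with the next STZ liver at 5.17 and the lowest at 4.88. Gcgr in control replicate 3 was 10.89, with the next control at 10.81 and the lowest at 10.75.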

How the results depend on the processing

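The 8 measured genes kept their direction in all 13 fits that left out 1 array and in the other alternatives run (10 for each gene, 9 for Arg2, which is dimmer than the median gene and has no value under the brightness filter). The count of members that passed, 4, was 2 when all probe sets were tested, 2 in the exact rank-sum test and 2 with the replicate block, and 1 to 4 with 1 array left out; in the other 7 alternatives it was 3 or 4. Arg1 and Arg2 dropped out when all probe sets were tested (adjusted p = 0.0593 and 0.0640) and in the rank-sum test (0.0874 and 0.262), and Cps1 and Arg2 with the replicate block (0.131 and 0.0659), which leaves out control replicate 7. Fewer arrays, and for the probe sets more tests, are part of how these were built; no other cause was tested. All genes that passed numbered 1819, 1088 in the rank-sum test, 1256 with the replicate block and 1399 to 2168 with 1 array left out. The labels do not say that a replicate number is shared between the groups, and deviations of same-numbered arrays correlated at -0.09 to 0.19 (above 0.1 in 2 of 6 pairs), so the numbers were not read as pairs. Of the 24 passing pathway genes named by rule, 15 kept their call in every alternative, and no named gene changed direction. Arrays compress differences at the dim end (Arg2, Car6).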
